A study of Mus musculus with 4 samples.

Results

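The genes described here are 36 mouse heat shock and chaperonin genes: the heat shock factors Hsf1 and Hsf2, the HSP90, HSP70, HSP110 and HSP40 chaperones with their partner proteins, a small heat shock protein, and subunits of the CCT chaperonin. They were taken by symbol from a deposited table of 22013 genes, and all 36 were found. The list was assembled with earlier results of the same comparison in view, so the values of that comparison below are descriptions of the members and support nothing by themselves. Hspa9, Hspd1 and Hspe1 encode mitochondrial proteins, so the list is not wholly cytosolic.

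Poly(A) RNA was sequenced from 4 libraries, each made from a pool of 5 blastocysts that came from matings within C57BL/6 after superovulation and were cultured in vitro. The 2 control libraries carry the genotype C57BL/6 wild type, and the labels give their treatment variously as none, Cas9 protein alone or a control guide RNA. The 2 knockout libraries carry the genotype C57BL/6 Ywhaz knockout and came from zygotes given CRISPR-Cas9 against Ywhaz, which encodes a phosphoprotein-binding adaptor of the 14-3-3 family. Names of the knockout libraries start with si, while the labels describe genome editing. The edited alleles and the embryonic day are not given in the labels, and nothing there says whether replicate pools derive from separate matings or days, and the p-values below therefore reflect only pool-to-pool spread, which may be technical. The values are FPKM, fragments mapped to a transcript scaled by its length and by the library's depth. Levels of different genes are compared on this scale below, and its accuracy between genes was not checked.

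Chaperones hold client proteins while they fold. HSP70 takes up short hydrophobic stretches with the help of HSP40 proteins, which bring clients and stimulate its ATPase, and nucleotide exchange factors such as BAG and HSP110 proteins let the client go. Clients such as kinases and steroid receptors pass from HSP70 to HSP90 through the adaptor STIP1, and the ring-shaped CCT complex folds actin and tubulin. Under heat or proteotoxic stress the factor HSF1 binds heat shock elements and induces genes such as Hspa1a, Hspa1b, Hsph1 and Dnajb1, while Hspa8 and Hsp90ab1 are made in unstressed cells. HSF1 is also known as a maternal factor of the mouse egg, and Hspa1a and Hspa1b are among the transcripts made when the embryonic genome becomes active.

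The labels were first checked by the targeted transcript and by cell type markers. Ywhaz measured 143 and 123 FPKM in the control pools, 32.7 FPKM in knockout pool 1 and 98.2 FPKM in knockout pool 2. Both knockout pools thus lay below both control pools but differed widely from each other. Of all genes tested below, 14.0% were lower in this way, and Ywhaz did not pass the threshold there (limma adjusted p = 0.305). The check of the labels by this transcript is therefore weak. Depth, estimated from the spacing of the lowest values, was 17.3 to 18.3 in units of 1e6 fragments per library. All 6 trophectoderm markers, all 4 epiblast markers and 3 of 4 primitive endoderm markers reached a mean of 1 FPKM. Summed FPKM of the trophectoderm markers was 186 to 236 in control and 225 to 349 in knockout libraries, that of the epiblast markers 175 to 182 and 267 to 286, and that of the primitive endoderm markers 37.3 to 42.8 and 34.4 to 37.4. Of 7 cumulus and granulosa markers Cyp19a1 and Has2 were listed at 0 in every library and only Amhr2 reached a mean of 1 FPKM, with a summed level of 8.41 to 9.78 FPKM in control and 5.98 to 8.97 FPKM in knockout libraries. Of 5 blood markers Hba-a1 and Hba-a2 reached it, and the summed level was 7.37 to 11.0 and 6.10 to 15.9 FPKM. The epiblast sum separated the groups in the direction of most members below, and its part in their values was not tested. Within that sum Pou5f1 and Nanog were higher without overlap, while Sox2 and Klf4 overlapped. The trophectoderm markers Krt18 and Tfap2c were also higher without overlap. The primitive endoderm markers Sox17 and Gata4, both at low levels, were lower without overlap. The other markers of these lineages overlapped. In pooled whole embryos, a change in the number of cells of a type and a change in RNA per cell cannot be told apart.

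Chaperone transcripts spanned a wide range of levels in control embryos, and Hspa8 and Hsp90aa1 headed it. Hspa8, the constitutive cytosolic HSP70, measured 1324 and 1217 FPKM in the control pools, 1161 FPKM in knockout pool 1 and 1918 FPKM in knockout pool 2. Next in order of control mean came Hsp90aa1 at 874 FPKM, Hspe1 at 386 FPKM, Dnaja1 at 319 FPKM, Hsp90ab1 at 259 FPKM and Cct4 at 257 FPKM. The last 2 did not differ beyond the spread of their pools. A control mean of at least 100 FPKM was reached by 15 of the 36 genes, and 9 of the 35 genes that passed the filter given below lay above the 90th percentile of control level over all genes tested. At the other end stood the stress-inducible HSP70 genes. Hspa1a measured 0.903 and 1.34 FPKM in control embryos and 1.08 and 1.45 FPKM in knockout embryos, about 46 to 70 fragments per library. Hspa1b measured 0.306 and 0.212 FPKM in the control pools, compared with 0.111 and 0.302 FPKM in the knockout pools, about 5 to 15 fragments. The coding sequences of this pair are 99.4% identical, so the division of reads between them is uncertain, but their sum was also low and Hspa8 stood 786 to 1095 times above it in each library.

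**Figure D1:**
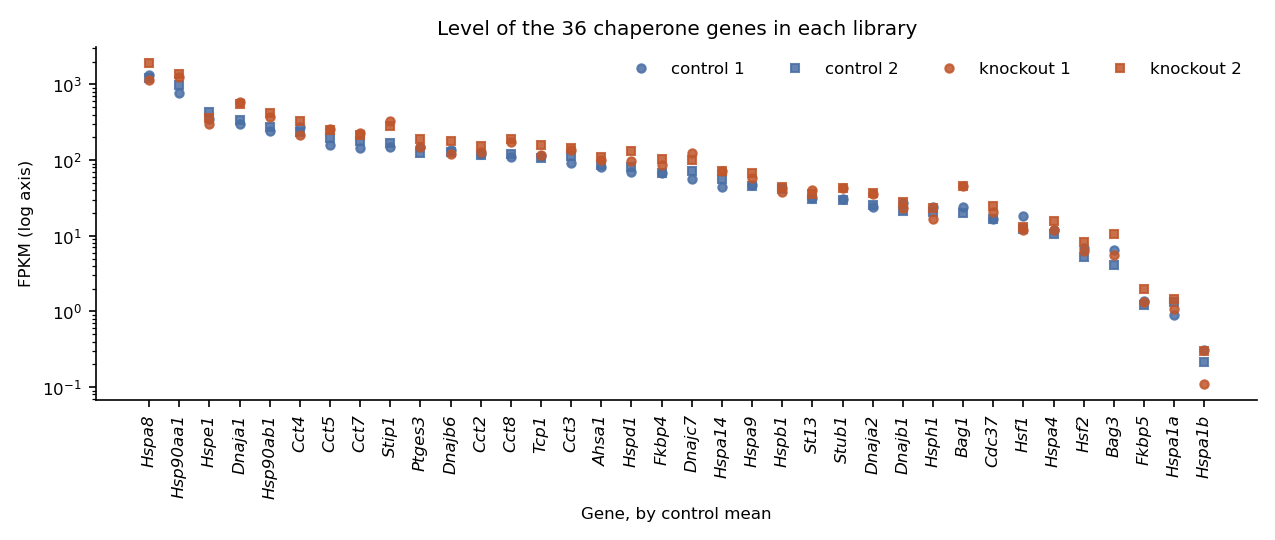
Level of each of the 36 genes in each library, in FPKM on a log axis, with genes ordered by control mean; blue marks are control and orange marks knockout libraries, circles replicate 1 and squares replicate 2. Control means run from 1270 FPKM for Hspa8 to 0.259 FPKM for Hspa1b, and Stip1, Bag1 and Dnaja1 show orange marks clearly above blue ones.

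The list as a whole stood higher in knockout than in control embryos, by a modest amount. The filter kept genes averaging at least 1 FPKM across libraries, 9544 in all, which were tested with limma on log2(FPKM + 1), and 35 of the 36 members passed that filter, Hspa1b being the exception. Of these 35 genes 31 had a positive log2 fold change, knockout minus control, against 56.0% of all genes tested. Their median log2 fold change was 0.42, against 0.047 over all genes tested. Both knockout libraries exceeded both control libraries in 21 of the 35, against 27.4% of all genes tested. Both knockout libraries lay below both control libraries in none of them, against 14.0% of all genes tested. Of the 3039 tested genes that averaged 20 FPKM or more, 45.9% had a positive log2 fold change, 23.1% were higher and 19.7% lower without overlap, and at an unadjusted limma p under 0.05 there were 258 higher and 136 lower. Of the 28 members at that level 25 were positive and 20 were higher without overlap.

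With group as the only factor, no single member passed an adjusted p of 0.05 over all genes tested in limma, where 0.0733% of genes passed. The smallest adjusted p among members in that fit was 0.129, for Stip1. With a term for replicate number added, Stip1 was the only member among 38 genes called (limma adjusted p = 0.0383). The labels do not say whether replicate numbers pair the libraries. At an unadjusted limma p under 0.05, 15 members were higher and none lower, against 7.75% and 3.33% of all genes tested. The authors' deposited table gave Stip1 a log2 fold change of 0.97 with an FDR of 0.00897 and Bag1 one of 1.03 with an FDR of 0.0223, and 0.222% of the 17155 genes above 0 were higher at an FDR under 0.05 in that table. Because these members were listed with this comparison in view, the counts are given as a description. Leaving out knockout library 1 gave limma calls for Stip1, Bag1, Dnaja1 and Hspd1, and leaving out knockout library 2 gave calls for Stip1, Bag1, Dnaja1 and Dnajc7, in fits that rest on 1 knockout library and call 167 and 249 genes in all. Leaving out either control library gave calls for 0 members. With 2 libraries against 2, the smallest p that an exact permutation test can give is 0.333.

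**Figure D2:**
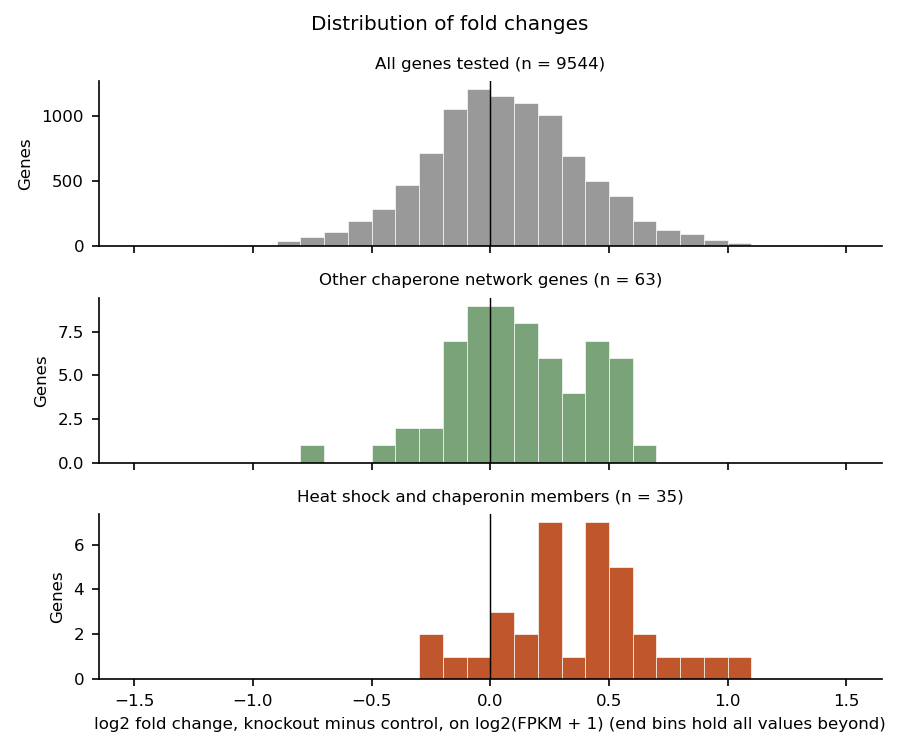
Number of genes by log2 fold change, knockout minus control on log2(FPKM + 1), for all 9544 genes tested, for 63 other genes of the chaperone network and for the 35 tested members. The members centre on a median of 0.42, the other network genes on 0.10 and all genes on 0.047.

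The shift was present in each knockout pool. Both pools belong to the comparison that was in view when the list was assembled, so neither is a separate check of it. Relative to the control mean on the log2(FPKM + 1) scale, the member median was 0.30 in knockout library 1 and 0.49 in knockout library 2. The medians over all genes tested were −0.008 and 0.13 in the same libraries, which leaves 0.31 and 0.36 for the members beyond all genes. In knockout library 1, where Ywhaz was lowest, 26 of 35 members lay above their control mean, and in knockout library 2 this was so for 33 of 35. The matching shares over all genes tested are not given here, so these counts are not read beyond the medians. Of all genes tested, 66.1% were higher in knockout library 2 than in knockout library 1. Together the 36 genes made up 0.564% and 0.567% of summed FPKM in the control pools and 0.680% and 0.881% in knockout pools 1 and 2. Without the 2 most abundant genes, Hspa8 and Hsp90aa1, these shares were 0.330%, 0.336%, 0.423% and 0.501% in the same order. Both knockout pools exceeded both control pools with and without those genes.

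**Figure D3:**
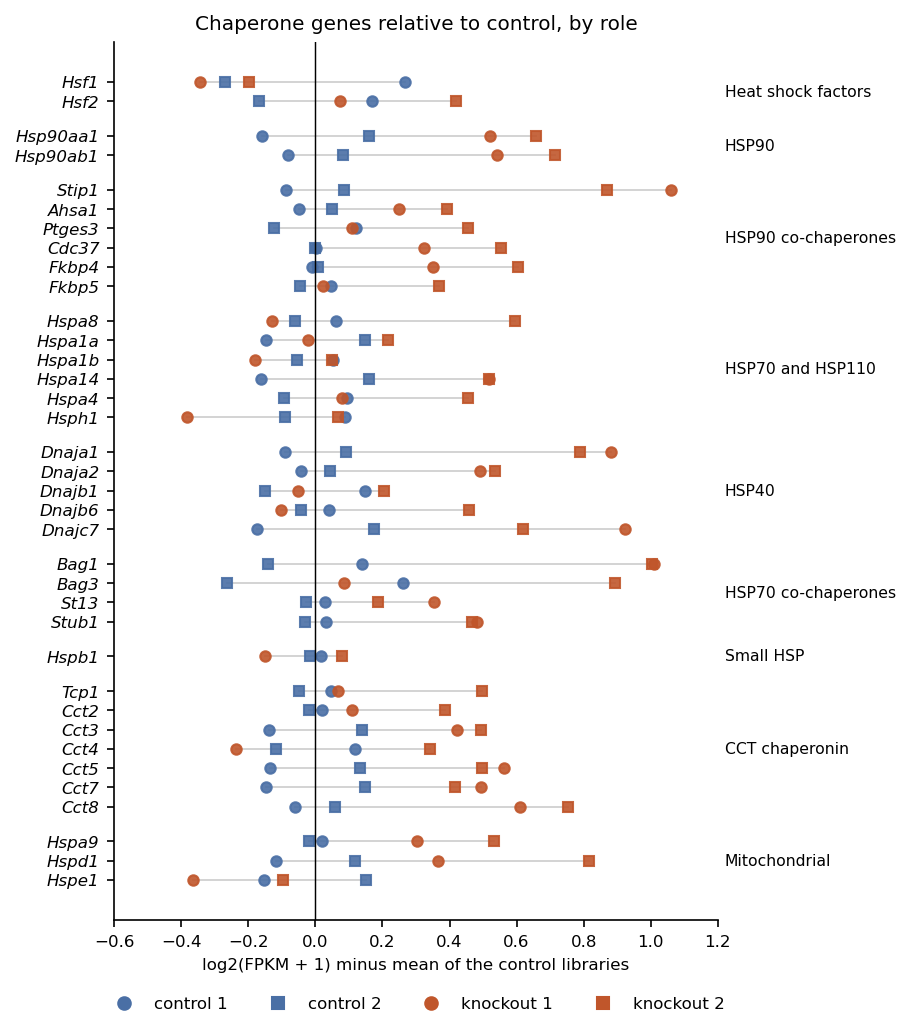
Difference of log2(FPKM + 1) in each library from the mean of the control libraries, for each of the 36 genes grouped by role; blue is control and orange knockout, circles are replicate 1 and squares replicate 2. Both orange marks lie to the right of both blue marks for Stip1, Dnaja1, Bag1, Hsp90aa1 and Hsp90ab1, while Hsph1, Dnajb1, Hspb1, Hspe1 and Hsf1 show mixed marks.

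Both cytosolic HSP90 genes were higher in knockout embryos. Hsp90aa1, the form that stress can induce, measured 777 and 970 FPKM in the control pools against 1245 and 1370 FPKM in the knockout pools, here and below in the order of replicates 1 and 2. Hsp90ab1, the constitutive form, measured 244 and 273 FPKM in the control pools against 376 and 424 FPKM in the knockout pools. Neither gene's groups overlapped, and the log2 fold changes of 0.59 ± 0.18 and 0.63 ± 0.17 (SE) differed by less than their errors. The ratio of Hsp90aa1 to Hsp90ab1 FPKM was 3.18 and 3.55 in control and 3.31 and 3.23 in knockout libraries, so both genes kept about the same proportion in every pool.

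Stip1 stood out among the HSP90 co-chaperones. It encodes the HOP adaptor that bridges HSP70 and HSP90, lies on the minus strand of chromosome 19 (GRCm38, 7020702 to 7039967), and measured 147 and 166 FPKM in control embryos and 327 and 286 FPKM in knockout embryos. The knockout mean was 1.96 times the control mean (307 ± 28.6 against 157 ± 13.3 FPKM, SD, n = 2 each), with a log2 fold change of 0.97 ± 0.18 (SE). Per 100 FPKM of HSP90 transcript, Stip1 stood at 14.4 and 13.3 in control and at 20.2 and 16.0 in knockout libraries. It was thus higher also in proportion to HSP90, narrowly so in knockout library 2. This ratio was formed for a member already singled out by its fold change, and it was not tested.

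Other HSP90 partners were higher by smaller amounts. Cdc37, which loads kinases onto HSP90, measured 16.5 FPKM in each control library and 20.9 and 24.6 FPKM in knockout libraries. Fkbp4, an immunophilin of steroid receptor complexes, measured 66.8 and 67.6 FPKM in the control pools, compared with 85.9 and 103 FPKM in the knockout pools. Ahsa1, an activator of the HSP90 ATPase, measured 80.2 and 86.0 FPKM in the control pools against 98.9 and 109 FPKM in the knockout pools. These groups did not overlap. Ptges3, which encodes the p23 co-chaperone, measured 148 and 125 FPKM in control embryos and 147 and 187 FPKM in knockout embryos, and its groups overlapped. Fkbp5, another immunophilin and a glucocorticoid target, was near the detection filter at 1.23 to 1.97 FPKM, and its groups overlapped too.

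The HSP70 and HSP110 genes were less uniform than HSP90. Hspa14, an HSP70 that works at the ribosome, was the 1 gene among them whose groups did not overlap, with 44.3 and 55.7 FPKM in the control pools, compared with 71.6 and 71.5 FPKM in the knockout pools. Hspa8 was higher in knockout library 2 and lower in knockout library 1 than in either control library, so its log2 fold change of 0.23 ± 0.23 (SE) turned to −0.13 without knockout library 2. Hspa4, an HSP110 protein that exchanges nucleotide on HSP70, measured 12.0 and 10.4 FPKM in the control pools against 11.9 and 15.7 FPKM in the knockout pools. Hsph1, the heat-inducible HSP110, measured 23.7 and 20.8 FPKM in control embryos and 16.8 and 23.3 FPKM in knockout embryos, and its log2 fold change of −0.16 turned to 0.067 without knockout library 1. The groups of both HSP110 genes overlapped.

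Among the HSP40 genes the DNAJA members and Dnajc7 were higher, and the DNAJB members were not separated. Dnaja1, a farnesylated HSP40 that serves Hspa8, measured 299 and 339 FPKM in the control pools, compared with 588 and 552 FPKM in the knockout pools, a mean 1.78 times higher with a log2 fold change of 0.84 ± 0.17 (SE). Dnajc7, a TPR-domain protein that binds both HSP70 and HSP90, measured 57.0 and 72.8 FPKM in the control pools against 123 and 99.6 FPKM in the knockout pools, with a log2 fold change of 0.77 ± 0.21 (SE). Dnaja2 measured 24.2 and 25.7 FPKM in control embryos and 35.4 and 36.6 FPKM in knockout embryos. None of these groups overlapped. Dnajb1, the classical heat-inducible HSP40, measured 26.7 and 21.6 FPKM in the control pools, compared with 23.1 and 27.8 FPKM in the knockout pools. Dnajb6, a suppressor of protein aggregation, measured 135 and 127 FPKM in the control pools against 122 and 180 FPKM in the knockout pools. Both overlapped. The log2 fold change of Dnajb6, 0.18, was −0.10 without knockout library 2. That of Dnajb1, 0.075, was −0.052 without knockout library 2, −0.073 without control library 2 and −0.001 with median-of-ratios scaling.

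Bag1 and Stip1 had the highest log2 fold changes of the 35 tested members, and they differed by less than their errors. Without control library 2 the value for Bag1 was 0.87 and that for Stip1 1.05. Bag1 encodes a nucleotide exchange factor that links HSP70 to the proteasome, lies on the minus strand of chromosome 4 (GRCm38, 40936398 to 40948294), and measured 24.4 and 19.9 FPKM in control embryos and 45.4 and 45.1 FPKM in knockout embryos. The knockout mean was 2.04 times the control mean (45.3 ± 0.181 against 22.1 ± 3.16 FPKM, SD, n = 2 each), with a log2 fold change of 1.01 ± 0.21 (SE). Its relative Bag3, a stress-induced factor of selective autophagy, measured 6.40 and 4.14 FPKM in the control pools, compared with 5.55 and 10.5 FPKM in the knockout pools, with overlapping groups. Stub1, the ubiquitin ligase CHIP that marks HSP70 and HSP90 clients, measured 31.1 and 29.7 FPKM in the control pools against 42.8 and 42.3 FPKM in the knockout pools. St13, the HSP70-interacting protein HIP, measured 32.0 and 30.7 FPKM in control embryos and 40.4 and 35.9 FPKM in knockout embryos. Bag1, Stub1 and St13 were thus higher in both knockout pools than in both control pools, and Bag3 was not.

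Several genes that heat can induce overlapped between control and knockout embryos. They were Hspa1a, Hspa1b, Hsph1, Dnajb1, Hspb1 and Bag3, which were put together after their values were seen, so nothing is read from them as a class. Hsp90aa1 and Hspd1, which stress can also induce, were higher without overlap and are described with their own families. The genes named here are not a full list of the members that stress can induce. Hspb1, the small heat shock protein that binds unfolding clients, measured 42.6 and 41.6 FPKM in the control pools, compared with 37.9 and 44.6 FPKM in the knockout pools. Hsf1, the factor that induces these genes, measured 18.5 and 12.4 FPKM in the control pools against 11.7 and 13.1 FPKM in the knockout pools. Hsf2, a related factor, measured 6.87 and 5.23 FPKM in control embryos and 6.37 and 8.36 FPKM in knockout embryos. The log2 fold change of Hspb1, −0.035, was 0.08 without knockout library 1, and that of Hspa1a, 0.098, turned negative when either control library 1 or knockout library 2 was left out, at −0.05 and −0.022. HSF1 activity is regulated mainly on the protein, so its transcript level is not a measure of that activity.

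Most subunits of the CCT chaperonin among the members were higher in knockout embryos. Of these 7 genes, 6 stood higher in either knockout pool than in either control pool, against 27.4% of all genes tested. Cct8 had the largest log2 fold change of the 7, with 109 and 119 FPKM in the control pools, compared with 175 and 193 FPKM in the knockout pools (log2 fold change 0.68 ± 0.18 SE). Cct5 measured 161 and 194 FPKM in the control pools against 261 and 249 FPKM in the knockout pools. The groups of both were well apart. Cct7 measured 145 and 178 FPKM in control embryos and 226 and 215 FPKM in knockout embryos, and Cct3 measured 92.4 and 112 FPKM in the control pools, compared with 137 and 144 FPKM in the knockout pools. Cct2 measured 120 and 117 FPKM in the control pools against 128 and 156 FPKM in the knockout pools. Tcp1 measured 114 and 107 FPKM in control embryos and 116 and 156 FPKM in knockout embryos, a gap between groups of 1.73 FPKM that closed when the values were rescaled to TPM.

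The member whose groups overlapped was Cct4, the most abundant subunit transcript in control embryos, at 278 and 236 FPKM in the control pools, compared with 217 and 325 FPKM in the knockout pools. Its log2 fold change was 0.053 ± 0.22 (SE) and turned negative with median-of-ratios scaling, at −0.026, as it did without control library 2, at −0.065, and without knockout library 2, at −0.24. Outside the member list, Cct6a measured 72.0 and 66.5 FPKM in the control pools against 93.5 and 107 FPKM in the knockout pools. Its paralog Cct6b measured 13.5 and 12.3 FPKM in control embryos and 8.73 and 12.7 FPKM in knockout embryos, with a log2 fold change of −0.26 and overlapping groups. The complex holds 1 copy of each subunit type in each ring, yet the 7 member transcripts differed 2.20 to 3.01 times between the highest and the lowest within a library. Their coefficient of variation was 42.9% and 33.3% in the control pools and 31.0% and 31.5% in the knockout pools, so subunit transcripts were no less even in knockout than in control pools.

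**Figure D4:**
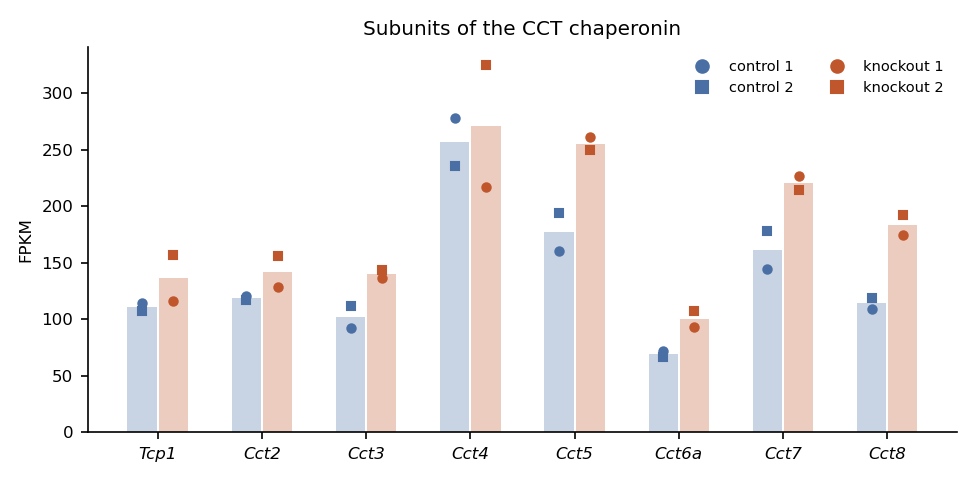
FPKM of the 8 CCT subunit types, Cct6a included; bars are means of 2 libraries and marks are single libraries, circles replicate 1 and squares replicate 2, blue control and orange knockout. The groups are apart for every subunit shown except Cct4, although for Tcp1 by 1.73 FPKM only, a gap that closes on the TPM scale. The Cct4 knockout values of 217 and 325 FPKM lie on either side of its control values.

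Mitochondrial chaperones differed from one another. Hspd1, the HSP60 chaperonin of the mitochondrial matrix, measured 69.4 and 81.8 FPKM in control embryos and 97.4 and 133 FPKM in knockout embryos, with a log2 fold change of 0.59 ± 0.21 (SE). Its lid Hspe1, the HSP10 co-chaperonin, measured 346 and 427 FPKM in the control pools, compared with 298 and 359 FPKM in the knockout pools, with a log2 fold change of −0.23 ± 0.19 (SE). Hspd1 was thus higher without overlap, while the groups of Hspe1 overlapped. The ratio of Hspe1 to Hspd1 FPKM was 4.98 and 5.22 in control and 3.06 and 2.70 in knockout libraries, lower in both knockout pools. This ratio was chosen after its values were seen and was not tested. Hspa9, the mitochondrial HSP70, measured 47.3 and 46.0 FPKM in the control pools against 57.7 and 67.9 FPKM in the knockout pools, and its groups did not overlap.

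**Figure D5:**
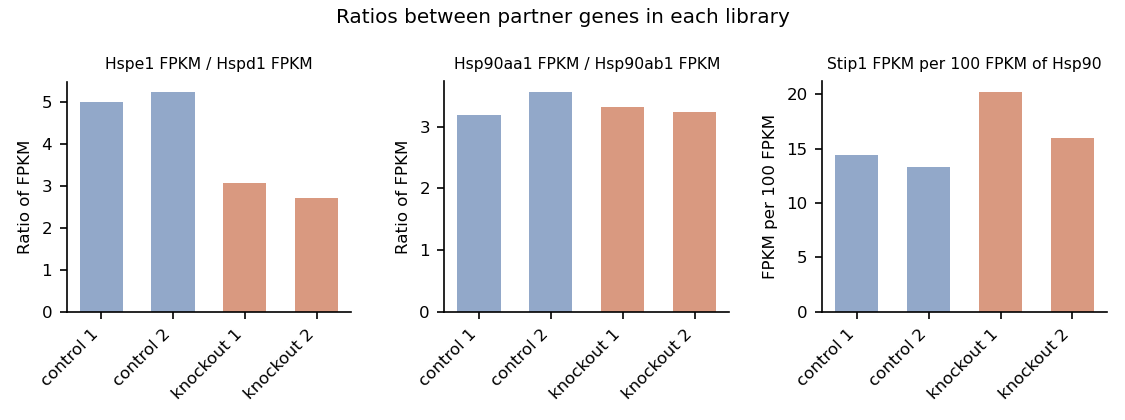
Ratios of FPKM between partner genes in each library, with bars from 0: Hspe1 over Hspd1, Hsp90aa1 over Hsp90ab1, and Stip1 per 100 FPKM of both HSP90 genes. The first ratio is 4.98 and 5.22 in control and 3.06 and 2.70 in knockout libraries, the second stays between 3.18 and 3.55, and the third is 14.4 and 13.3 in control and 20.2 and 16.0 in knockout libraries.

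Promoter sequence was compared because the members divide into genes with and without heat shock elements. RefSeq promoter windows on GRCm38.p6, from 250 bases before to 50 bases after an annotated start, were found for 29 of the 36 genes. A gene counts as holding a motif if any of its windows does. The motif counts leave out Hsf1, Hspa8 and Cct4, whose groups overlapped, for want of a window. They also leave out Hsp90aa1, Hsp90ab1, St13 and Hspa9, which were higher without overlap. A run of 3 alternating units of GAA and TTC with 2 bases between units occurred in 4 of the 29 members, Hspd1, Hspe1, Hsph1 and Dnajb6, and in 0.662% of the 27025 genes with a window. A pair of units, GAANNTTC or TTCNNGAA on either strand, which the longer form contains, occurred in 14 of the 29 members and in 17.0% of all genes. CCAAT on either strand occurred in 16 of the 29 members and in 41.1% of all genes, and the GC box GGGCGG in 27 of 29 and in 38.2%. TATAAA occurred in 1 of 29, Stip1, and in 15.7% of all genes. In the counts of heat shock units, Hspd1 and Hspe1 both count for the same stretch, which lies in a window of each. Hspa1a and Hspa1b both count for windows alike at 296 of 300 positions. Such matches describe letters in a window and are not shown binding sites.

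Hspd1 and Hspe1 stand head to head on chromosome 1, and 285 of the 300 bases of the Hspe1 window lie also in an Hspd1 window. The windows below show this divergent promoter and the inducible genes Hsph1 and Hspa1a, all with overlapping groups except Hspd1. Beside them stand Stip1 and Bag1, which had the highest fold changes. The windows were picked with these values in view, so nothing is read from their contrast. Members with a pair of units that were higher without overlap, namely Cdc37, Fkbp4, Dnaja1, Stub1, Cct2 and Cct5, are not shown. Capitals mark every pair of heat shock units; the runs are read 5′ to 3′ along each gene's own strand.
Hspe1, chr1:55087898-55088197, plus strand: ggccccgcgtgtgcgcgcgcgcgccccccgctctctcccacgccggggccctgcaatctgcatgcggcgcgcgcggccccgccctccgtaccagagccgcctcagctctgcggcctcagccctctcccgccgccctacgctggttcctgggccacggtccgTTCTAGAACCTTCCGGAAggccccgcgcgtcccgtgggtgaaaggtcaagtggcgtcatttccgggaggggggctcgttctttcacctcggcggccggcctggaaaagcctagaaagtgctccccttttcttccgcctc
Hsph1, chr5:149636266-149636565, minus strand: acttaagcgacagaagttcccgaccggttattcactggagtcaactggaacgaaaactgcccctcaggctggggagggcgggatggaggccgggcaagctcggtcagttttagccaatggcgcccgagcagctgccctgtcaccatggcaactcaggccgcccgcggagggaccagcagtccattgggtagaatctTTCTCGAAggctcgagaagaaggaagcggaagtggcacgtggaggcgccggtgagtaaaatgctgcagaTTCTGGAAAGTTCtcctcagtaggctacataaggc
Hspa1a, chr17:34972107-34972406, minus strand: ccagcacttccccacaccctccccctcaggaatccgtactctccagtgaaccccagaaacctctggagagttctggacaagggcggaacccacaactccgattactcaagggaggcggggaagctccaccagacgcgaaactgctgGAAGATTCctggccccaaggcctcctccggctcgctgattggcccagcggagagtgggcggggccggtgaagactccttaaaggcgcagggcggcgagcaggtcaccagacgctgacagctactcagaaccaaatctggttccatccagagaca
Stip1, chr19:7039977-7040276, minus strand: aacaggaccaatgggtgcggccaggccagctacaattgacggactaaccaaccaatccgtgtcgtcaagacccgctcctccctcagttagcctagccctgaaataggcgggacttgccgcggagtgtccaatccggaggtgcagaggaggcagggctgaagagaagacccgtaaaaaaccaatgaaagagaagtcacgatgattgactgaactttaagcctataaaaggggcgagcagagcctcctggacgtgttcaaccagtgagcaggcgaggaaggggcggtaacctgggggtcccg
Bag1, chr4:40948245-40948544, minus strand: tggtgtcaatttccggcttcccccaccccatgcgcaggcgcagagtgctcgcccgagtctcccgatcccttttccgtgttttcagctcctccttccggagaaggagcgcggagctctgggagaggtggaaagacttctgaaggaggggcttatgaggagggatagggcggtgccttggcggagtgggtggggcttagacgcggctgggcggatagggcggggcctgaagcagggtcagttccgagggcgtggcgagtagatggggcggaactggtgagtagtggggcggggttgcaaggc

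The Hspe1 window holds the longer element from 89 bases before the start and the Hsph1 window from 15 bases after it. The Stip1 and Bag1 windows show no capitals. A missing match does not show that a gene lacks a heat shock element. The windows of Dnajb1, the classical heat-inducible HSP40, hold no pair of units either. The Hspa1b window matches that of Hspa1a at 296 of 300 positions and is therefore not shown. Of the 13 tested members whose windows hold a pair of units, 7 stood higher in either knockout pool than in either control pool, among them Hspd1, Dnaja1 and Cct5. Of the 15 tested members whose windows hold none, 10 were, among them Stip1, Bag1, Dnajc7 and Cct8. Over all genes tested this was so for 27.4%, and the difference between both sets of members was not tested.

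Genes of the wider chaperone network outside the member list were read from the same fit. Of 72 such genes listed by function, 71 were in the table and 63 passed the filter. None passed an adjusted p of 0.05 in limma, and at an unadjusted p under 0.05 there were 5 higher and 1 lower, against 7.75% and 3.33% of all genes tested. Of the 63, 41 or 65.1% had a positive log2 fold change, against 56.0% of all genes tested, and the median was 0.10. Without overlap 34.9% were higher and 11.1% lower, near the 27.4% and 14.0% of all genes tested. By family, 5 of 8 prefoldin and prefoldin-like genes, 7 of 12 further J-domain genes and 2 of 4 tubulin cofactors were positive. The members and this list were not tested against each other.

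The 4 positive genes with the smallest p were Cct6a, Dnajc2, Pfdn6 and Hspa13, and none passed the threshold. Dnajc2, a J protein of the ribosome-associated complex, measured 19.7 and 17.8 FPKM in control embryos and 27.1 and 29.9 FPKM in knockout embryos (limma adjusted p = 0.353). Pfdn6, a prefoldin subunit that hands actin and tubulin to CCT, measured 94.2 and 116 FPKM in the control pools, compared with 166 and 137 FPKM in the knockout pools (limma adjusted p = 0.377). Hspa13 measured 0.808 and 1.60 FPKM in the control pools against 2.66 and 2.34 FPKM in the knockout pools. All of these were separated between groups without passing the test. The 4 negative genes with the smallest p were Hspb8, Hspa12a, Hsbp1l1 and Dnajb5. Hspb8, a small heat shock protein that works with BAG3, measured 31.4 and 29.4 FPKM in control embryos and 13.1 and 23.3 FPKM in knockout embryos (limma adjusted p = 0.347). For comparison, the endoplasmic reticulum forms Hspa5 and Hsp90b1 had log2 fold changes of 0.50 ± 0.26 and 0.24 ± 0.20 (SE).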

How the data were processed

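The authors deposited 1 table with an FPKM value per gene and library, rounded to 3 decimals, per the file headers. The authors' deposited log2 fold change, p-value and FDR columns were used where named as theirs. Per the submitters' processing notes, the build was GRCm39 and the tools included DESeq2, RSEM, StringTie 1.3.1, HISAT2 2.1.0, Bowtie2 2.2.8 and fastp 0.18.0, with no role stated. The table holds no counts, so no count test was run. Each FPKM column was matched to its sample by name.

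Tests used limma 3.58.1 in R 4.3.3 on log2(FPKM + 1) with an intensity trend and 2 residual degrees of freedom. Genes averaging at least 1 FPKM, 9544 in all, entered the fit, and p-values were adjusted over them by Benjamini-Hochberg. Fold changes on this scale understate changes of low genes. Members and lists were chosen with earlier results of these data known. Every member was to be described, with each library's value for those whose groups do not overlap and for compared partners, and up to 4 other network genes each way by smallest p. Depth was estimated from low FPKM steps in single-transcript genes over 1500 nt, where 79.7% to 81.5% of values lay within 10% of a whole fragment. Coordinates are from GENCODE M21 on GRCm38 and promoter windows from RefSeq on GRCm38.p6, not the authors' build. Whether reads were counted by strand is not stated. The fit was checked on simulated data drawn with the spread that limma estimated. At an adjusted p under 0.05 it recovered 64.4% of 2-fold and 92.1% of 4-fold changes there, with 200 changed genes per run. Of its calls there, 7.31% were false. Whether these shares hold for the deposited libraries was not tested. In the deposited values Stip1 and Bag1 stood at 1.96 and 2.04 times their control means. With group as the only factor neither passed (limma adjusted p = 0.129 and 0.169).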

Additional observations from a re-analysis of the deposited data

How the results depend on the processing

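With 2 pools per group the spread is poorly known, and no member's call holds under every setting. Of the 35 tested members, 28 kept the sign of their log2 fold change wherever they were tested under a pseudocount of 0.1, no filter, a minimum of 5 FPKM, TPM or median-of-ratios scaling, no trend, the replicate block or 1 library left out. The others were Hspa8, Hspa1a, Hsph1, Dnajb1, Dnajb6, Hspb1 and Cct4. Genes called in limma were 7, against 0 with no filter on low values (1400 at an unadjusted p under 0.05), 11 with TPM, 4 with median-of-ratios scaling and 3 with no trend. Same-numbered libraries deviated from their group means with a correlation of −0.244 over genes. That value sets 1 control difference against 1 knockout difference, so it cannot decide whether the replicate number pairs the libraries. With the replicate block limma called 38 genes, 1 of them a member (Stip1). With the crossed replicate block, chosen after seeing the data, it called 475 genes, 7 members and 1 other network gene. Leaving out 1 library at a time gave 17 to 249 genes, 0 to 4 members and 0 to 1 other network gene. In those fits the member median lay between 0.302 and 0.493, the members with a positive fold change numbered 26 to 33, and those higher without overlap 21 to 32. The background moved too. Of all genes tested, 64.9% were positive without control library 1 and 49.6% without control library 2. Groups separate more easily with fewer libraries, so these overlap counts do not compare with those of the full fit. The cause of these shifts was not tested.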
